A study of Homo sapiens with 4 samples.

Results

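Ribosome biogenesis begins in the nucleolus, where RNA polymerase I (Pol I) transcribes the ribosomal RNA precursor. Small nucleolar ribonucleoproteins (snoRNPs) then modify and help fold this precursor, and a long series of processing factors cuts it and assembles it with ribosomal proteins into the small and large subunits. The proteins of all these steps are themselves encoded by genes that Pol II transcribes, and in dividing cells many of them are known targets of the MYC transcription factor, which binds the E-box motif.

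The genes described here are 42 genes of this pathway in a table of 60708 genes. They were listed by name, as Pol I machinery, snoRNP proteins, abundant nucleolar proteins and subunit processing factors. The list uses no measured value, but it was drawn up with earlier results of these data known. All 42 were present in the table, 41 of them matched through their stable gene identifier and BOP1 through an identical gene span. They were measured by TT-seq, which labels new RNA with 4-thiouridine (4-SU), here for 20 min, and sequences the purified labeled fragments. HEK293 cells, an established line of human embryonic kidney origin, were used with the RPB1 degron genotype, in which auxin triggers the loss of endogenous RPB1, the largest Pol II subunit. All 4 libraries came from such cells transfected with a plasmid that expresses RPB1, either with the 52X WT C-terminal domain (CTD) or with the 52X CTD carrying the T4A mutation. Auxin was added 48 h after transfection and kept for 48 h in both groups. There were 2 libraries of each, and no untransfected or auxin-free library was analysed here. The labels do not say whether replicates were separate cultures, so that p-values measure only the spread between these libraries, which may be technical. The comparison of T4A with WT asks how the mutation changes the new RNA of each gene relative to all other genes, since the counts give shares of a library and not amounts per cell. Transfected cells are a mixture, and in such bulk RNA fewer cells that make a transcript and less RNA per cell cannot be told apart.

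The libraries held 39249066 and 45605027 counts for WT and 33853507 and 33188536 for T4A, and the members took between 0.504% and 0.558% of them. POLR2A is the gene of RPB1, and its count includes whatever comes from the plasmid. It took 0.961% and 0.843% of the WT libraries and 0.743% and 0.842% of the T4A libraries. Its log2 fold change was -0.24 with an adjusted p of 0.659 in the edgeR test described below. Both T4A libraries lay below both WT libraries in normalized level, as for 24.7% of all tested genes. Of 6 HEK293 markers, 5 had counts in all libraries, with summed levels of 156 to 161 CPM (counts scaled to library size) in WT and 131 to 151 in T4A, while NEFM and INA stayed at 6 counts or fewer. The 6 measured markers of other cell types summed to between 1.32 and 1.53 CPM in WT and between 1.74 and 2.56 in T4A. T4A replicate 1 stood apart from the other libraries. Log2 CPM correlated at 0.991 between the WT replicates, at no less than 0.988 between T4A replicate 2 and either WT library, and at 0.979 between the T4A replicates, but it fell to 0.9745 between T4A replicate 1 and a WT library. Over all tested genes, those with a GC content of 55 to 60% had a median log2 ratio to the WT mean of -0.39 in T4A replicate 1, beside 0.07 in T4A replicate 2, and those above 60% had medians of -1.16 and 0.09. The falls of the GC-rich members RRS1, MYBBP1A, NOC2L, BOP1 and UBTF are therefore given with and without that library.

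None of the 41 tested members passed the test. A gene was called when its adjusted p was below 0.05 in edgeR's quasi-likelihood test, with library sizes scaled by TMM factors and p-values adjusted by the Benjamini-Hochberg method over all 23321 genes tested. Only 1 of these genes, CHST8, was called, which is 0.00429%, so the test made almost no calls anywhere in the table. At an unadjusted p below 0.05, RRN3, POLR1C and POLR1E were higher in T4A and 0 members were lower, and the corresponding shares of all genes were 7.45% higher and 8.02% lower. These counts turned with the scaling and the model. Scaling to mitochondrially encoded genes gave 0 members higher and 4 lower (5.72% and 4.95% of all genes), the replicate number as a block 1 higher and 4 lower (6.81% and 7.32%), and library sizes without TMM factors 9 higher and 0 lower (10.5% and 6.31%). DESeq2, a second count test, called 8.22% of the genes to which it gave an adjusted p, among them NPM1 and RRN3 of 39 members, both higher in T4A. The median log2 fold change of the members was -0.00111, beside -0.00076 for all tested genes and -0.0431 for tested protein-coding genes. There were 20 members above 0 and 21 below. Both T4A libraries lay above both WT libraries for 11 members, beside 24.8% of all tested genes. They lay below both for 4 members, beside 24.7%. The remaining 26 members overlapped between the groups. Read beside these shares, 11 of 41 is near the background and 4 of 41 lies below it.

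The count table lists each gene over its whole span, so that introns, which make up much of labeled new RNA, were counted. Levels are given here as TMM-normalized CPM per kb of that span. In WT cells they ran from 0.514 ± 0.0127 (SD, n = 2) for WDR12 to 30.1 ± 0.353 (SD, n = 2) for NPM1. NPM1, which encodes the abundant nucleolar chaperone nucleophosmin, was followed by NOP56 at 24.9 ± 1.48 (SD, n = 2), and these did not overlap in the WT libraries. BRIX1 came next at 10.9, with WT replicates of 10.2 and 11.6. NOP58 and NOP16, both at 9.69, lay below both BRIX1 values and overlapped each other. DDX21 at 8.90, NCL at 8.61 and GNL3 at 8.19 followed and also overlapped from neighbor to neighbor. At the low end stood POLR1C at 0.751, UTP4 at 1.22 and POLR1D at 1.25. The order of the members was much the same in T4A, with a Spearman correlation of 0.978 across the 41 genes, a description over genes that share the same libraries. The listed span sets this scale. It was at least 1.5 times the span in the RefSeq gene table for 6 members. For NCL, which encodes nucleolin, the listed span is 30.111 kb and the RefSeq span 10.954 kb. The same counts divided by the RefSeq span gave 23.7 CPM per kb. WDR12, lowest of all, has a listed span of 140.54 kb and a RefSeq span of 37.413 kb. Divided in the same way, WDR12 came to 1.93, UTP4 to 3.35 and POLR1D to 3.31 CPM per kb, beside 0.874 for POLR1C. Reads were not recounted over the RefSeq spans. Those outside a shorter span stayed in the count, so these values may be too high.

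**Figure D1:**
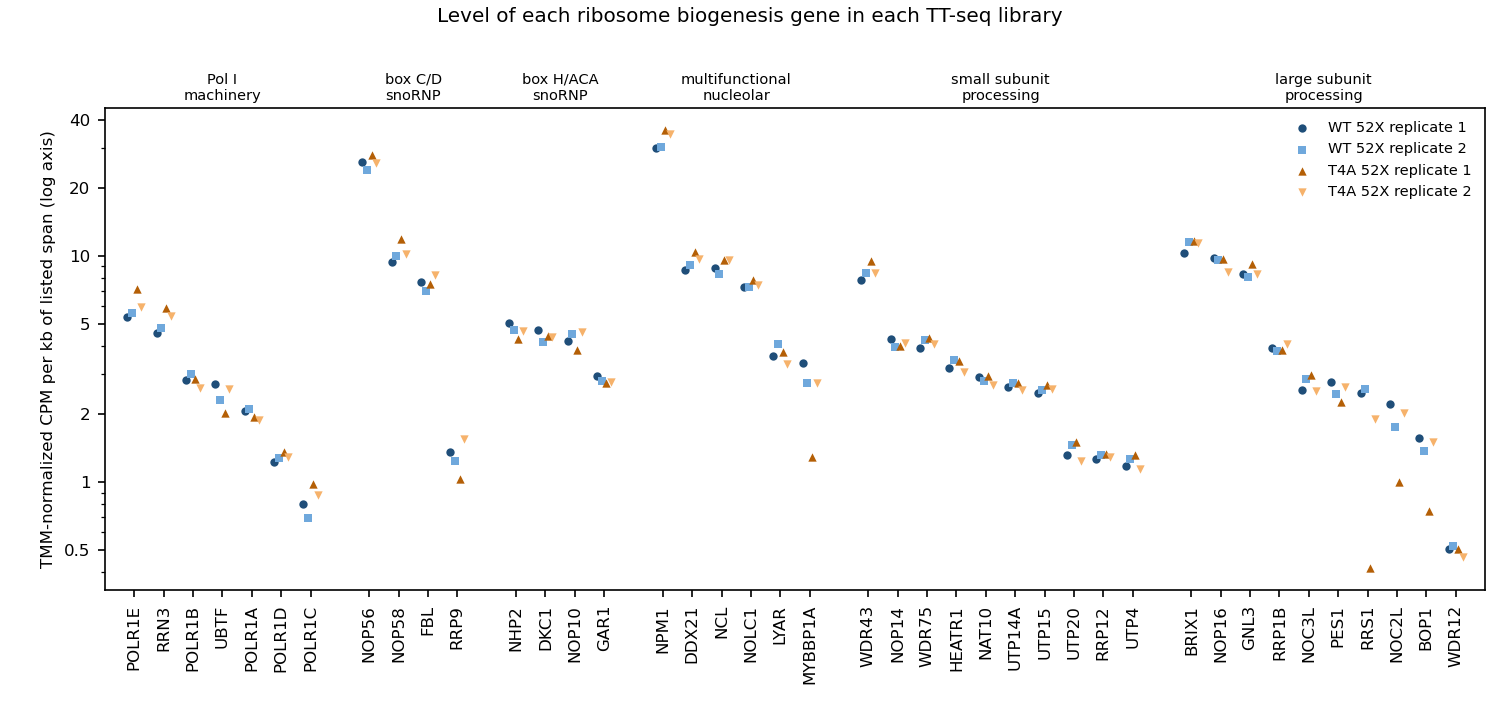
Each point is the level of a gene in 1 TT-seq library, as TMM-normalized CPM per kb of listed span on a log axis, with genes grouped by role and sorted by their WT mean. NPM1 and NOP56 stand highest in all 4 libraries, most genes have their 4 points close together, and T4A replicate 1 lies far below the other points for RRS1, MYBBP1A, NOC2L and BOP1.

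Some members could not be measured over their full span. NOP2, an RNA methyltransferase of the large subunit pathway, was listed at 0 in all 4 libraries, and 99.8% of its span is overlapped on its own strand by another listed protein-coding gene, ENSG00000285238. The 5 snoRNA genes in the span of NOP56, the 4 in NOP58 and the 3 each in NCL and WDR43 were also listed at 0 in every library, as were the other snoRNA genes inside members. RRN3, in contrast, is overlapped along 100% of its span on the other strand by PDXDC1 and still had at least 6125 counts per library, so reads were assigned by strand. Overlap on the same strand also covered 44.1% of UTP4 and 31.9% of RRS1, and what their counts lost through it is not known.

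Promoter motifs were not used to choose the members. RefSeq promoters, which begin upstream of a transcription start and end just downstream of it, were available for 35 of the 42 members. An E-box (CACGTG, its own reverse complement) was present in the promoter of 17 of the 35, or 48.6%, beside 7.26% of all 35116 promoters of the same length. Counted by gene, as for the members, the share was 11.8% of 12043 tested protein-coding genes. These were FBL, RRP9, NOP10, GAR1, DDX21, MYBBP1A, LYAR, WDR43, UTP4, UTP14A, UTP20, NAT10, NOP14, PES1, NOP2, GNL3 and NOC3L. Of their 18 E-boxes, 16 lay within 100 bases of the start, 9 began upstream of it and 9 at or downstream of it. Each promoter searched was only 300 bases long, so that many of its positions lie near the start. E-box positions in the promoters of other genes were not examined. None of the Pol I machinery genes with an entry held an E-box. The core of the ETS motif (CCGGAAG or its reverse complement CTTCCGG) was found in 13 members, or 37.1%, beside 10.3% of all promoters and 19.2% of the tested protein-coding genes, and POLR1B, POLR1C and RRN3 were among them. The CTCGCGAG palindrome was found in 3 members (8.57%, beside 1.02% and 2.18%), the NRF1 motif (GCATGCGC or GCGCATGC) in 2 (5.71%, beside 3.05% and 5.49%), and the CCAAT box (CCAAT or ATTGG) in 15 (42.9%, beside 34.6% and 43.1%). RRP1B, RRS1, NOLC1, BOP1, RRP12, NOP58 and POLR1E had no entry. A match of letters is a description and not a bound site.

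The promoters of 5 members are shown from RefSeq (GRCh38.p14), 5′ to 3′ on the strand of the gene. RRN3 (chr16:15094286-15094585, minus strand) and POLR1C (chr6:43516839-43517138, plus strand) are shown because they had the lowest p-values of the set, with the ETS core in capitals, which in POLR1C occurs on both strands with an overlap. FBL (chr19:39846330-39846629, minus strand) has an E-box just after the start and an ETS core far upstream. NOP10 (chr15:34343087-34343386, minus strand) is the member with 2 E-boxes, and has an ETS core between them. MYBBP1A (chr17:4555335-4555634, minus strand), shown for its place among the largest falls, has an E-box after the start and overlapping NRF1 motifs before it. Capitals mark these motifs only.
RRN3: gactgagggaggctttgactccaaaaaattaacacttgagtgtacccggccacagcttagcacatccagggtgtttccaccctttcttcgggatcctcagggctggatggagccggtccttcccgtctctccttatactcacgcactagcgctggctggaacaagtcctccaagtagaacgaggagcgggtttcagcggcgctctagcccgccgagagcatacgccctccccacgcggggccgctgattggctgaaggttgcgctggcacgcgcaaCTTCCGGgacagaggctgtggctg
POLR1C: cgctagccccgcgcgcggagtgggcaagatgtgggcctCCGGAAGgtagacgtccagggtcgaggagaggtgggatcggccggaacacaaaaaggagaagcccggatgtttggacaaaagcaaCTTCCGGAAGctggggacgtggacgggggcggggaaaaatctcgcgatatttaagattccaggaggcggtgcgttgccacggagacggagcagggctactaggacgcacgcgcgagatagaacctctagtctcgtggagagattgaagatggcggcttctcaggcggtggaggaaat
FBL: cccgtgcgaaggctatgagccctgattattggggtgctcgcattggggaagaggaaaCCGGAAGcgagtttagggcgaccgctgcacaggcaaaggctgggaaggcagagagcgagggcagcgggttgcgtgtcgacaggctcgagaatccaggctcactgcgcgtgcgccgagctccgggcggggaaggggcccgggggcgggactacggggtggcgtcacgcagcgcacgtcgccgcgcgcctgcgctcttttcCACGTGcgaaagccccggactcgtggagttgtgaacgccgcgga
NOP10: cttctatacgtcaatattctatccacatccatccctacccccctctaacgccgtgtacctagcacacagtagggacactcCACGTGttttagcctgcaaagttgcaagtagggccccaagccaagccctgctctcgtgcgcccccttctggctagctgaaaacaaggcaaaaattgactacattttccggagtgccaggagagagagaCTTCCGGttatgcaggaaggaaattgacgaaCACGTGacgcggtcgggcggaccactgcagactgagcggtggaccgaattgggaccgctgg
MYBBP1A: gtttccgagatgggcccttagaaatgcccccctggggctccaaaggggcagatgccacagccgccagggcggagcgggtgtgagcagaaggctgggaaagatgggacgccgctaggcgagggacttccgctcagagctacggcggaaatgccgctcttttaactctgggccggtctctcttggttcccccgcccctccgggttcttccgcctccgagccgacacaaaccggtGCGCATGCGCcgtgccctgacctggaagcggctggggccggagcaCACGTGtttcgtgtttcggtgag

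**Figure D2:**
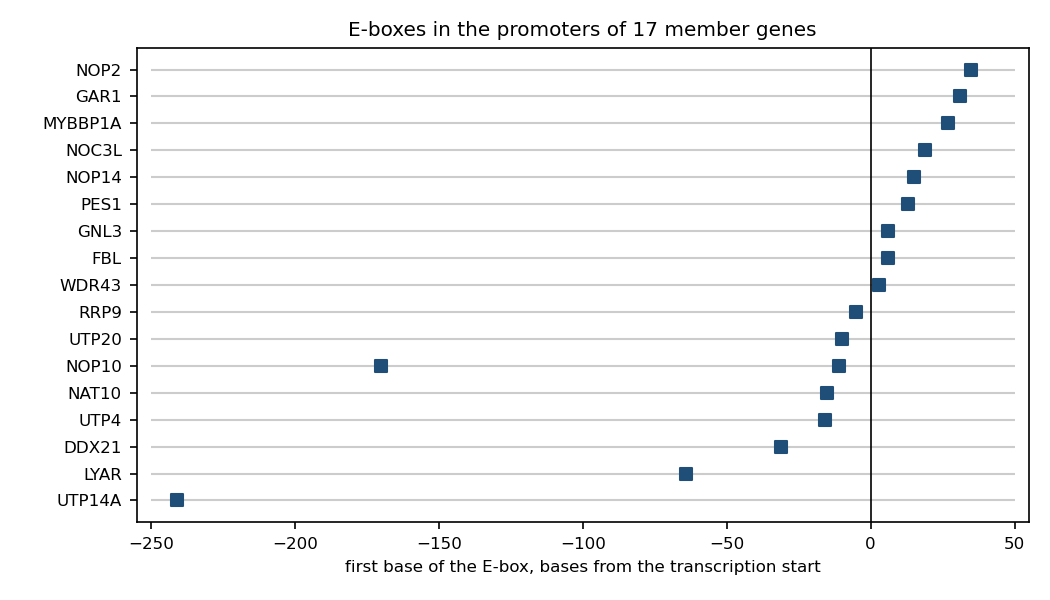
Each square is the first base of an E-box in the promoter of a member gene, in bases from the transcription start (vertical line, at 0), and each grey line is the promoter searched. Most squares lie within 100 bases of the start, and the exceptions are UTP14A at -241 and the upstream E-box of NOP10 at -170. Positions in other promoters were not examined.

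The T4A against WT differences of members with and without an E-box were both centered near 0. The median log2 fold change was -0.0144 for the 16 tested members with an E-box and 0.0187 for the 18 without. MYC itself, at 11.04 and 16.6 CPM per kb in T4A and 14.6 and 14.7 in WT, overlapped between the groups, with an adjusted p of 0.824.

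The Pol I machinery held the members with the lowest p-values. Of its 7 genes, 4 had both T4A libraries above both WT libraries, 1 had both below, and 2 overlapped, with a median log2 fold change of 0.08. Over all tested genes 24.8% lay above and 24.7% below, and nothing particular to these 7 genes can be read from so small a count.

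RRN3 encodes the factor that brings Pol I to the promoter of the ribosomal RNA genes. The counts of RRN3 were 6125 and 7221 for WT and 6791 and 6449 for T4A, which made 156 and 164 against 202 and 187 normalized CPM. Both T4A libraries lay above both WT libraries. Its level was 4.67 ± 0.151 CPM per kb in WT and 5.67 ± 0.326 in T4A (SD, n = 2 each), and the T4A mean was 21.4% above that of WT. The log2 fold change was 0.28 with a standard error (SE) of 0.092, an unadjusted p of 0.0147 and an adjusted p of 0.25 in the edgeR fit, so RRN3 was not called. It was between 0.23 and 0.32 when each library in turn was left out. DESeq2 gave 0.28 with an adjusted p of 0.0275. Removing the trend of each library on GC content brought the share of genes called in the whole table to 10.4%. RRN3 was then at 0.26 with an adjusted p of 0.00805. It was not called by edgeR with the replicate number as a block (adjusted p 0.434) or with scaling to mitochondrially encoded genes (adjusted p 0.781). PDXDC1, on the other strand of the whole of RRN3, had a log2 fold change of -0.12 and an adjusted p of 0.525. RRN3 also has near-identical pseudogene copies. The count columns are labeled unique, which may mean that reads matching several places were left out. The sources used here do not say how such reads were treated.

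POLR1C and POLR1D encode a pair of small subunits that Pol I shares with Pol III. The counts of POLR1C were 1661 and 1622 for WT and 1732 and 1592 for T4A, which made 42.4 and 36.8 against 51.6 and 46.0 normalized CPM. The T4A libraries were the highest, and the log2 fold change was 0.30 (SE 0.113, adjusted p 0.277). This estimate moved from 0.18 without WT replicate 2 to 0.40 without WT replicate 1, and it was past the threshold without T4A replicate 2, with an adjusted p of 0.0401. Its span overlaps genes on the other strand along 88.7%, mainly XPO5, whose log2 fold change was -0.24 with an adjusted p of 0.263. The counts of POLR1D were 5909 and 6965 for WT and 5642 and 5507 for T4A, which made 151 and 158 against 168 and 159 normalized CPM. These values were all close, with a log2 fold change of 0.08 (SE 0.088, adjusted p 0.664) that ranged from 0.04 to 0.11 when each library was left out.

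POLR1E encodes a subunit specific to Pol I that takes part in initiation. The counts of POLR1E were 3732 and 4354 for WT and 4238 and 3633 for T4A, which made 95.3 and 98.8 against 126 and 105 normalized CPM. T4A replicate 1 was the high library, and T4A replicate 2 exceeded the WT libraries only slightly. The log2 fold change was 0.25 (SE 0.106, adjusted p 0.311), and it was 0.12 without T4A replicate 1 and 0.36, with an adjusted p of 0.0215, without T4A replicate 2.

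The catalytic core of Pol I is formed by POLR1A and POLR1B. The counts of POLR1A were 6967 and 7970 for WT and 5595 and 5602 for T4A, which made 178 and 181 against 167 and 162 normalized CPM. Both T4A libraries were below both WT libraries by a small margin, with a log2 fold change of -0.13 (SE 0.0858, adjusted p 0.495). The counts of POLR1B were 4207 and 5003 for WT and 3652 and 3422 for T4A, which made 107 and 114 against 109 and 98.97 normalized CPM. The groups overlapped, and the log2 fold change was -0.09 (SE 0.0915, adjusted p 0.655). Neither gene of the core passed the test. When each library in turn was left out, POLR1B ranged from -0.15 to -0.04.

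UBTF encodes the protein that binds and keeps open the ribosomal DNA. The counts of UBTF were 1759 and 1689 for WT and 1130 and 1474 for T4A, which made 44.9 and 38.3 against 33.7 and 42.6 normalized CPM. T4A replicate 1 was the lowest and T4A replicate 2 lay between the WT libraries. The log2 fold change was -0.13 (SE 0.138, adjusted p 0.678), and it was 0.04 without T4A replicate 1. UBTF is GC-rich, at 59.5%.

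**Figure D3:**
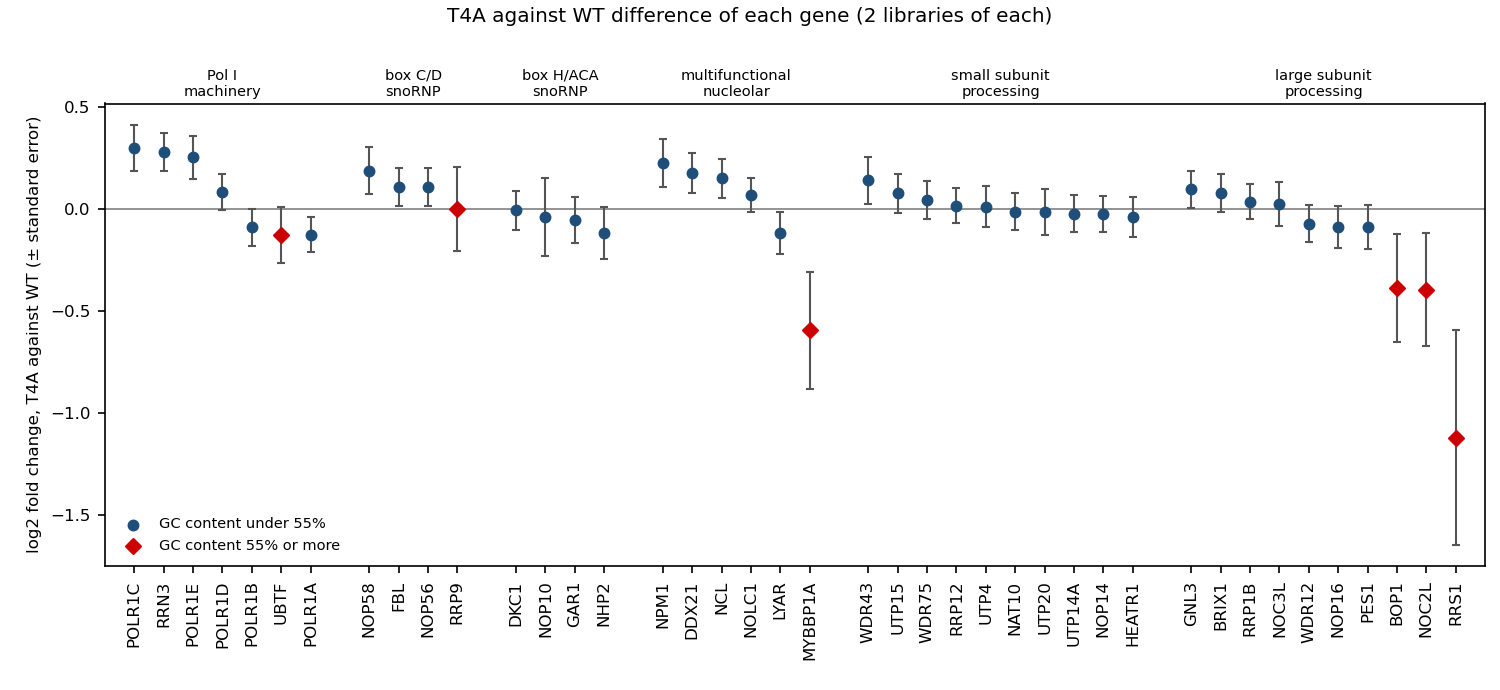
Each symbol is the log2 fold change of a member gene, T4A against WT, from the edgeR fit on 2 libraries of each, and bars are standard errors. Genes are grouped by role, and red diamonds mark the 6 genes with a GC content of 55% or more, 5 of which lie below 0 by more than 0.1 and have long bars. RRP9 is the other at -0.00, and circles mark the remaining 35 genes, all within 0.302 of 0.

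Proteins of the box C/D snoRNPs guide methylation of ribosomal RNA, and FBL, or fibrillarin, is their methyltransferase. The counts of FBL were 3564 and 3659 for WT and 3000 and 3398 for T4A, which made 91.1 and 83.0 against 89.4 and 98.3 normalized CPM. The groups overlapped, and the log2 fold change was 0.11 (SE 0.0952, adjusted p 0.599). It was 0.03 without WT replicate 2, 0.02 without T4A replicate 2 and 0.18 without T4A replicate 1. NOP56 and NOP58 are the paired core proteins of these particles. The counts of NOP58 were 13930 and 16707 for WT and 15185 and 13315 for T4A, which made 356 and 379 against 452 and 385 normalized CPM. T4A replicate 1 was high and T4A replicate 2 was just above the WT libraries, with a log2 fold change of 0.19 (SE 0.116, adjusted p 0.456), which was 0.07 without T4A replicate 1 and 0.29 without T4A replicate 2. The level of NOP56 was 25.98 and 23.9 in WT and 27.9 and 25.8 in T4A CPM per kb, with overlap between the groups. RRP9, a protein specific to the U3 particle, was at 1.36 and 1.24 in WT and 1.03 and 1.56 in T4A CPM per kb, and its T4A replicates were the lowest and the highest of the 4 libraries. None of the 4 genes passed even an unadjusted p of 0.05.

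Proteins of the box H/ACA snoRNPs guide pseudouridylation. DKC1, or dyskerin, is the pseudouridine synthase, and its level of 4.68 and 4.17 in WT and 4.41 and 4.39 in T4A CPM per kb overlapped between groups. NHP2 was at 5.03 and 4.69 in WT and 4.28 and 4.67 in T4A CPM per kb, with both T4A libraries lowest by a small margin. NOP10, at 4.2 and 4.5 in WT and 3.82 and 4.63 in T4A, had its T4A replicates at both ends of the range. GAR1 was at 2.94 and 2.8 in WT and 2.75 and 2.77 in T4A, again with T4A lowest by a small margin. All 4 log2 fold changes were below 0, between -0.12 for NHP2 and -0.01 for DKC1, and the lowest unadjusted p among them was 0.375.

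NPM1 and NCL are among the most abundant nucleolar proteins and act in several steps of the pathway. The counts of NPM1 were 28853 and 33037 for WT and 29863 and 29362 for T4A, which made 737 and 749 against 889.6 and 849 normalized CPM. Both T4A libraries were above both WT libraries, by more than the replicates of either group differed. The log2 fold change was 0.23 (SE 0.120, adjusted p 0.394), and it kept between 0.20 and 0.24 when each library was left out. NPM1 was called by DESeq2, with an adjusted p of 0.0295, and after removal of the GC trend, at 0.20 with an adjusted p of 0.0118. It was not called by edgeR with the replicate number as a block (adjusted p 0.753) or with scaling to mitochondrially encoded genes (adjusted p 0.891). NPM1 has many processed pseudogenes, to which some of its exonic reads may align.

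For NCL the picture was similar with a smaller difference. The counts of NCL were 10446 and 11089 for WT and 9654 and 9945 for T4A, which made 267 and 252 against 288 and 288 normalized CPM. Both T4A libraries were higher, and the log2 fold change was 0.15 (SE 0.0945, adjusted p 0.463), or 0.09 without WT replicate 2. DDX21 is an RNA helicase of the nucleolus, named here after its values were seen. The counts of DDX21 were 9775 and 11660 for WT and 10059 and 9724 for T4A, which made 249.7 and 265 against 299.7 and 281 normalized CPM. Both T4A libraries were above both WT libraries, with a log2 fold change of 0.18 (SE 0.0970, adjusted p 0.409), which became 0.16 with an adjusted p of 0.0496 after removal of the GC trend. NOLC1, a chaperone of snoRNPs, was at 7.28 and 7.29 in WT and 7.82 and 7.47 in T4A CPM per kb, also with T4A on top. LYAR, a nucleolar protein of ribosomal RNA processing, was at 3.63 and 4.07 in WT and 3.77 and 3.33 in T4A CPM per kb, and its groups overlapped.

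Of the small subunit processing factors, 5 of 10 were above 0 and 5 below, and all log2 fold changes lay between -0.04 and 0.14. UTP4, UTP15, WDR43, WDR75 and HEATR1 belong to the complex that joins the precursor first, while it is being transcribed. WDR43 was at 7.85 and 8.37 in WT and 9.49 and 8.39 in T4A CPM per kb, and UTP15 at 2.47 and 2.55 in WT and 2.7 and 2.59 in T4A. In these 2 genes alone of the 10 both T4A libraries were above both WT libraries, beside 24.8% of all tested genes. For WDR43 the margin between T4A replicate 2 and WT replicate 2 was almost nothing. WDR75 was at 3.91 and 4.26 in WT and 4.33 and 4.1 in T4A and HEATR1 at 3.19 and 3.48 in WT and 3.42 and 3.08 in T4A CPM per kb. UTP4 was at 1.18 and 1.26 in WT and 1.32 and 1.14 in T4A. The groups of these genes overlapped, with log2 fold changes of 0.04, -0.04 and 0.01. UTP14A, UTP20, NOP14 and RRP12 are further factors of small subunit maturation, and NAT10 acetylates the ribosomal RNA. Their log2 fold changes were -0.02, -0.02, -0.03, 0.02 and -0.01 for UTP14A, UTP20, NOP14, RRP12 and NAT10, and all overlapped between the groups. The lowest unadjusted p in the small subunit group was 0.25, for WDR43.

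The large subunit factors without a high GC content were also close between the groups. PES1, BOP1 and WDR12 form a complex needed for maturation of the large subunit. PES1 was at 2.77 and 2.45 in WT and 2.26 and 2.64 in T4A CPM per kb and WDR12 at 0.505 and 0.523 in WT and 0.509 and 0.469 in T4A, with log2 fold changes of -0.09 and -0.07. BRIX1, which acts in early assembly, was at 10.2 and 11.6 in WT and 11.7 and 11.4 in T4A CPM per kb. GNL3, or nucleostemin, was at 8.36 and 8.03 in WT and 9.2 and 8.34 in T4A. Both showed overlap of the groups, with log2 fold changes of 0.08 and 0.10. NOP16, RRP1B and NOC3L, further nucleolar factors of the large subunit, had log2 fold changes of -0.09, 0.04 and 0.03, also with overlap.

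The largest falls in fitted log2 fold change belonged to 4 GC-rich members, and all 4 were much smaller or gone without T4A replicate 1. RRS1, a factor of large subunit assembly with a single short exon, had the fewest counts of the tested members. The counts of RRS1 were 167 and 195 for WT and 24 and 113 for T4A, which made 4.27 and 4.42 against 0.715 and 3.27 normalized CPM. T4A replicate 1 was far below the rest, and T4A replicate 2 was also below both WT libraries. The log2 fold change was -1.12 (SE 0.525, adjusted p 0.348). It was -2.61 without T4A replicate 2, with an adjusted p of 5.08e-13, and -0.40 without T4A replicate 1. MYBBP1A encodes a nucleolar protein that takes part in ribosomal RNA processing. The counts of MYBBP1A were 2176 and 1986 for WT and 714 and 1568 for T4A, which made 55.6 and 45.1 against 21.3 and 45.4 normalized CPM. Only T4A replicate 1 was low, while T4A replicate 2 was level with WT replicate 2. The log2 fold change was -0.59 (SE 0.286, adjusted p 0.358), and it was -0.14 without T4A replicate 1.

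NOC2L and BOP1 act in maturation of the large subunit. The counts of NOC2L were 1305 and 1171 for WT and 506 and 1053 for T4A, which made 33.3 and 26.6 against 15.1 and 30.5 normalized CPM. The counts of BOP1 were 1798 and 1788 for WT and 736 and 1530 for T4A, which made 45.9 and 40.6 against 21.9 and 44.3 normalized CPM. In both genes T4A replicate 1 was at about the same distance below the WT libraries and T4A replicate 2 lay between them. The log2 fold changes were both -0.39 (SE 0.278 and 0.264, adjusted p 0.510 and 0.499). Without T4A replicate 1 they were 0.03 and 0.04, and without T4A replicate 2 they were -1.0 and -0.99, both past the threshold.

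The position of these genes in T4A replicate 1 went along with GC content. The 6 members with a GC content of 55% or more were BOP1 at 62.4%, MYBBP1A at 59.8%, NOC2L and UBTF at 59.5%, RRS1 at 56.3% and RRP9 at 55.1%. All 6 were below both WT libraries in T4A replicate 1, with a log2 ratio to the WT mean between -2.60 and -0.31. In T4A replicate 2 only RRS1 was, and the ratios lay between -0.41 and 0.26. Of the 35 members with a lower GC content, 5 were below both WT libraries in T4A replicate 1 and 13 in T4A replicate 2, with medians of 0.083 and 0.018. How many of all tested genes, or of those with a like GC content, lay below both WT libraries in either T4A library was not counted. These numbers therefore do not set the members apart from other genes. Across the 41 members the log2 ratio of T4A replicate 1 had a Pearson correlation with GC content of -0.638 (Spearman -0.535), and that of T4A replicate 2 of -0.031 (0.012). These are descriptions over genes of the same libraries, and over all tested genes with a GC value the Pearson correlation of T4A replicate 1 was -0.435. The WT replicates also went along with GC content, with Pearson correlations across the members of 0.768 and -0.77, and of 0.149 and -0.119 over all tested genes. Their signs are opposite because the WT mean is the reference. The WT ratios stayed within 0.2 of 0 on the log2 scale for every member. Whether GC content accounts for these values was not tested.

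**Figure D4:**
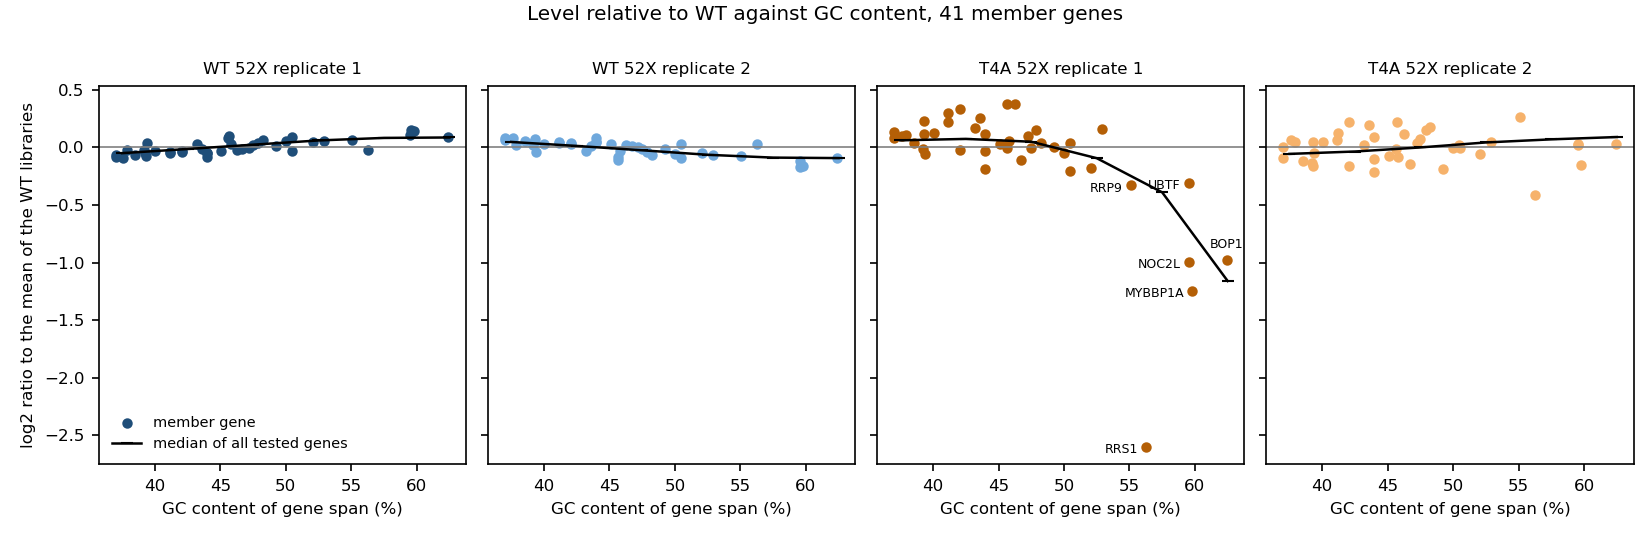
Each panel shows 1 library. Points are the log2 ratios of the 41 members to the mean of the WT libraries, against the GC content of the gene span in percent. The black line joins the medians of all tested genes in GC bins of 5 percentage points up to 60%, and in 1 bin above 60%. The WT panels mirror each other because the WT mean is their reference. In T4A replicate 1 the 6 labeled genes with a GC content of 55% or more fall below 0. The median of all genes there is -0.39 in the bin of 55 to 60%, which holds 5 of them, and -1.16 above 60%, where BOP1 lies. RRS1, MYBBP1A and NOC2L lie below the median of their bin, and UBTF, RRP9 and BOP1 above it.

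The calls among the members changed with how this was handled. With the GC trend of each library removed, 4 members were called, NPM1, RRN3 and DDX21 higher and MYBBP1A lower, among 10.4% of all genes. Under the same correction the log2 fold change of BOP1 went from -0.39 to -0.03, that of NOC2L from -0.39 to -0.17, that of MYBBP1A from -0.59 to -0.37, that of UBTF from -0.13 to 0.17 and that of RRS1 from -1.12 to -1.06. With scaling to mitochondrially encoded genes only RRS1 was called, among 0.836%. With the replicate number as a block, RRS1 and MYBBP1A were called, among 2.29% of genes, and with the block and the GC correction together NPM1, POLR1C and RRN3 were higher and RRS1 and MYBBP1A lower, among 12.4%. Without T4A replicate 2, which left T4A replicate 1 to stand for the group and its spread to be taken from WT, 7 members were called among 13.8% of genes, with RRN3, POLR1C and POLR1E higher and RRS1, MYBBP1A, NOC2L and BOP1 lower. Without T4A replicate 1, 0 members were called, beside 1.36% of all genes, and 0 had an unadjusted p below 0.05, beside 6.25% of genes higher and 7.75% lower. RRN3, NPM1, POLR1C and POLR1E were above 0, and RRS1 and MYBBP1A below 0, in every fit made. The other members given with full statistics also kept their direction, except UBTF, NOC2L and BOP1. All fits drew on the same libraries, so a constant direction is no independent support.

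**Figure D5:**
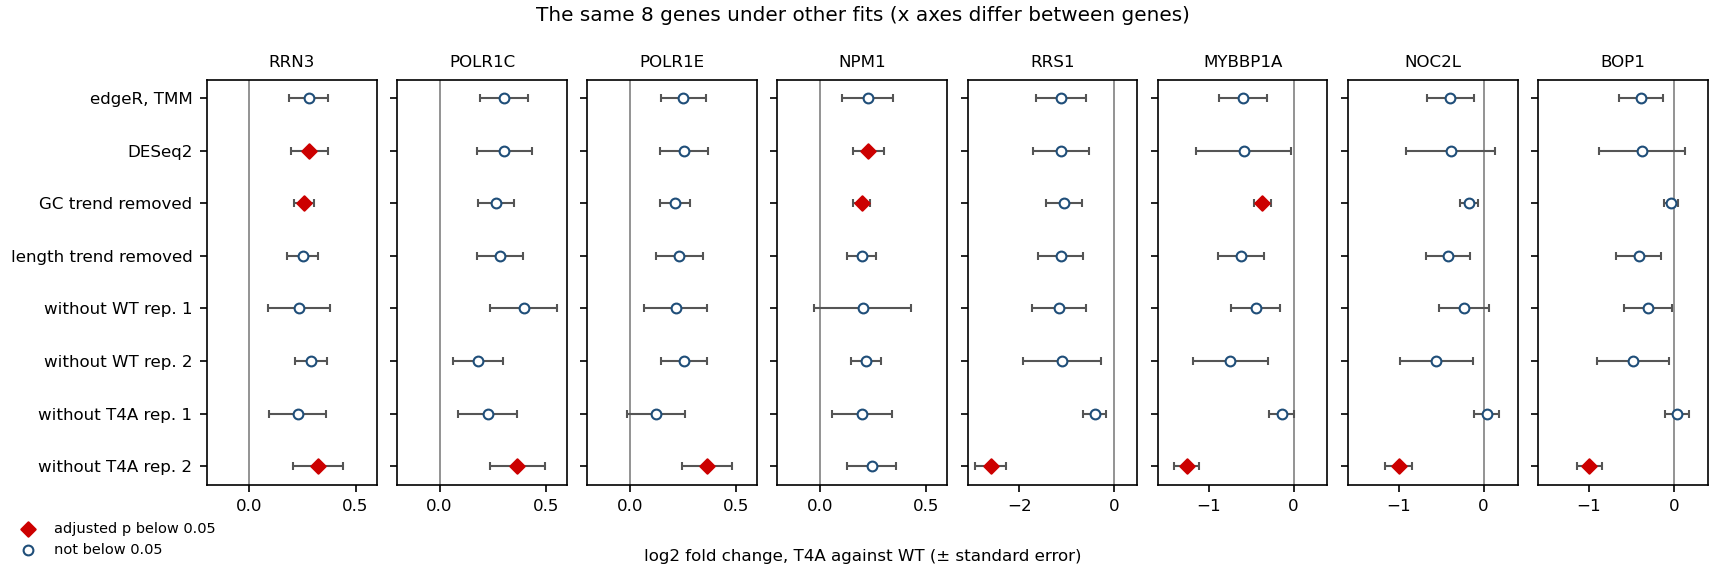
Each panel shows 1 gene, with its log2 fold change, T4A against WT, and standard error under 8 fits, and filled red diamonds mark an adjusted p below 0.05. The x axes differ between panels. RRN3, POLR1C, POLR1E and NPM1 stay to the right of 0, while NOC2L and BOP1 lie at about -1 without T4A replicate 2 and at 0.03 and 0.04 without T4A replicate 1.

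Other genes of the pathway were examined as lists, none of whose genes was called. Of 13 other Pol I factors, including the TAF1 proteins that select the promoter and subunits shared with Pol II, 0 had an unadjusted p below 0.05, with a median log2 fold change of -0.08. TAF1A had the lowest p of that list, 0.123, with a log2 fold change of -0.19. Of 41 tested other small subunit factors, 0 were higher and 2 lower at that threshold, with a median of -0.03, and RRP7A, a factor of early assembly, had the lowest p at a log2 fold change of -0.38 (adjusted p 0.286). RRP7A is also GC-rich, at 57.5%. Of 39 tested other large subunit factors, 5 were higher and 1 lower, with a median of -0.00. Both directions are again to be read beside the 7.45% and 8.02% of all genes.

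WDR74, an assembly factor of the large subunit, had the lowest p of all lists. It was at 95.0 and 84.6 CPM in WT and 127 and 129.9 CPM in T4A. Both T4A libraries were well above both WT libraries, and the log2 fold change was 0.52 (SE 0.0931, adjusted p 0.150). Of 11 Pol III subunits, 0 were higher and 1 lower. That gene was POLR3E, with a log2 fold change of -0.36 (adjusted p 0.232). Of 8 tested genes of the MYC network, 0 were higher and 1 lower, MLX, a partner protein of the network, with a log2 fold change of -0.49 (adjusted p 0.236).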

How the data were processed

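TT-seq libraries of HEK293 RPB1 degron cells with 52X WT or 52X T4A RPB1 were compared (2 each). The authors deposited raw counts per gene over the listed gene span. The submitters' processing notes name FastQC, cutadapt 4.6, STAR 2.7.11b, Picard, deepTools 3.5.6 and GRCh38, without roles. The count columns are labeled unique. Strand and multi-mapping settings are otherwise not given in the sources used here. Coordinates are those of the table and matched GRCh38. Genes were named by stable identifier (58700 of 60708, GENCODE v44lift37) or by identical RefSeq GRCh38 span (958). GC content was taken from the GRCh37 span of the same identifier, or of the same symbol where the identifier was missing, as for BOP1.

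Counts were tested with edgeR 4.0.16 in R 4.3.3 (TMM, filterByExpr, quasi-likelihood, Benjamini-Hochberg). TMM factors were 0.998 and 0.967 for WT and 0.993 and 1.04 for T4A. SE was derived from the F statistic. Alternatives were DESeq2 1.42.0, other scalings and filters, at least 10 counts in every library, the replicate number as a block, trends of each library on gene length or GC content (loess, span 0.3) removed as offsets, and leaving out each library. The GC alternatives were added after seeing the data. The members and lists were chosen with earlier results of these data known. Named with full statistics were the Pol I machinery, NCL, NPM1, FBL and the 5 largest rises and falls, and in each other list the gene with the lowest p. The fit was also run on simulated counts, drawn without a trend on GC content. Such a run does not speak to the behavior of the fit with T4A replicate 1. Promoters were those of the RefSeq table, searched on both strands.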

Additional observations from a re-analysis of the deposited data

How the results depend on the processing

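The number of genes called was 913 with DESeq2, 195 with scaling to mitochondrially encoded genes, 150 with no filter on low counts, 2 with the gene length trend removed, 2403 with the GC trend removed, and between 0 and 3466 when each library was left out. The 2 extremes came without WT replicate 2 and without T4A replicate 2, and without T4A replicate 1 it was 333. The number of members called was 2 with DESeq2, 1 with mitochondrial scaling, 4 with the GC trend removed, and between 0 and 7 when each library was left out. Deviations of replicate 1 from the group mean correlated at 0.00498 between WT and T4A. The labels do not say whether replicate numbers pair the libraries. With 2 libraries a group this correlation cannot settle it. With the replicate block, 533 genes and 2 members were called, with the block and length trend 0 genes, and with the block and GC trend 2865 genes and 5 members. The median of the members less that of all genes, -0.000352, was -0.0802 with no filter and between -0.0349 and 0.0296 when each library was left out, beside an SD between replicates of 0.0166. UBTF turned to 0.166 with the GC trend removed and 0.158 with block and GC trend. When each library was left out, UBTF ranged from -0.321 to 0.0432, NOC2L from -1.0 to 0.0336 and BOP1 from -0.994 to 0.0415, each above 0 only without T4A replicate 1. The cause was not tested. No other named member changed direction. With 2 libraries a group and 24 to 195 counts, RRS1 is the least precise member.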
